A study of Homo sapiens with 8 samples.

Results

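The genes studied were 10 genes of EGF receptor signalling: the ligand genes AREG, EREG, HBEGF, TGFA, BTC and NRG1, the receptor genes EGFR, ERBB2 and ERBB3, and ERRFI1, which encodes an inhibitor of the receptors. They were taken by gene name from a table of 58870 genes. Of the 10, 8 passed a filter on low reads and were tested among 16542 genes, while TGFA and BTC did not pass. RNA was measured in BJ cells, a line of skin fibroblasts, in the derivative labelled BJ-HRAS. The 4 groups, of 2 libraries each, were SNORA13 knockout (KO) clones given 100 nM (Z)-4-hydroxytamoxifen (4-OHT) for 7 days, the same KO clones without 4-OHT, wild-type (WT) clones given 4-OHT in the same way, and the same WT clones without it. The KO clones were 66 and 69, and the WT clones were 15 and 54. SNORA13 is a small nucleolar RNA. In cells of this kind 4-OHT is used to switch on HRAS fused to an oestrogen receptor domain, and the labels here do not describe the construct. All 4 groups, the WT clones included, are BJ-HRAS, so an effect of 4-OHT itself and one of HRAS cannot be told apart. The groups without 4-OHT are listed at 0 nM and day 0, and those with it at 100 nM and day 7. If these are the days of sampling, time cannot be told apart from 4-OHT either. Each genotype is represented by 2 clones, and whatever else sets those clones apart cannot be told apart from the genotype.

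The EGF receptor and its relatives are membrane receptors that sit at the head of the RAS and MAP kinase pathway. Their ligands are made as membrane-bound precursors and are released by proteases called sheddases; ligand binding pairs the receptors and switches on their kinase. Amphiregulin (AREG), epiregulin (EREG), heparin-binding EGF-like growth factor (HBEGF), transforming growth factor alpha (TGFA) and betacellulin (BTC) bind the EGF receptor, and some of them also ERBB4, while neuregulin 1 (NRG1) binds ERBB3 and ERBB4. ERBB2 has no known ligand of its own and acts as a partner, and ERBB3 has little kinase activity. Several of these genes are themselves induced by RAS and MAP kinase signalling, and ERRFI1 (also known as MIG6) is a feedback inhibitor that binds the active kinase.

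The libraries held 22.1 to 24.9 M reads, so that for a transcript of 1 kb each read adds 0.0401 to 0.0453 RPKM (reads scaled to transcript length and library size). SNORA13 had 0 reads in all 4 KO libraries and 4 to 7 reads in the WT libraries. The fibroblast character of the cells was checked against markers: all 11 fibroblast markers passed the filter, with summed levels of 1968 to 2339 RPKM in KO with 4-OHT, 3886 to 4066 in KO without, 2076 to 2125 in WT with and 4146 to 4344 in WT without. With 4-OHT 3 of the 11 rose and 8 fell in KO, and 2 rose and 7 fell in WT, where 27.9% of all genes tested rose and 27.8% fell in KO and 24.7% rose and 24.2% fell in WT. Among them, chosen after their values were seen, the matrix protein genes DCN and LUM and the protease gene FAP fell 63.3-, 37.1- and 18.3-fold in KO and 59.7-, 24.4- and 17.2-fold in WT (limma adjusted p = 6.49e-07 to 1.9e-05). The fibroblast markers that rose were COL6A1 (3.49-fold in KO, 2.07-fold in WT), VIM (1.46- and 1.57-fold) and, in KO alone, PDGFRA (1.36-fold). Of 10 epithelial markers 3 passed. KRT5 and KRT14 were listed at 0 in every library and EPCAM had 0 to 23 reads, while the summed level of the list, nearly all of it KRT18, was 263 to 274 RPKM in KO with 4-OHT, 492 to 549 in KO without, 281 to 290 in WT with and 780 to 800.1 in WT without. The endothelial, immune and melanocyte lists summed to at most 1.43, 16.8 and 1.12 RPKM. Signal recognition particle RNA, from RN7SL1 and RN7SL2, took 16.1% and 14.8% of reads in KO clones 66 and 69 with 4-OHT, 9.72% and 15.4% in WT clones 15 and 54 with 4-OHT, and 9.18% to 10.1% in the 4 libraries without it. The part of these differences in the results below was not tested. In bulk RNA, fewer cells of a type and less RNA per cell cannot be told apart.

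With 4-OHT the ligand genes AREG and EREG and the inhibitor gene ERRFI1 rose in both genotypes, and the receptor genes ERBB2 and ERBB3 fell in both. HBEGF rose in WT and NRG1 fell in KO. EGFR passed the test in neither. In KO, 3 of the 8 tested genes rose and 3 fell, where 27.9% of all genes tested rose and 27.8% fell. In WT, 4 rose and 2 fell, where 24.7% of all genes rose and 24.2% fell. ERBB3, counted among those that fell, passed the filter through the libraries without 4-OHT alone. The response to 4-OHT reached much of the transcriptome, so the counts say little about these genes, and their levels are given one by one. Fold changes throughout are on the log2(RPKM + 0.1) scale, which understates the change of genes at low levels, and a gene passed the test at an adjusted p under 0.05 (limma, Benjamini-Hochberg over all genes tested).

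**Figure D1:**
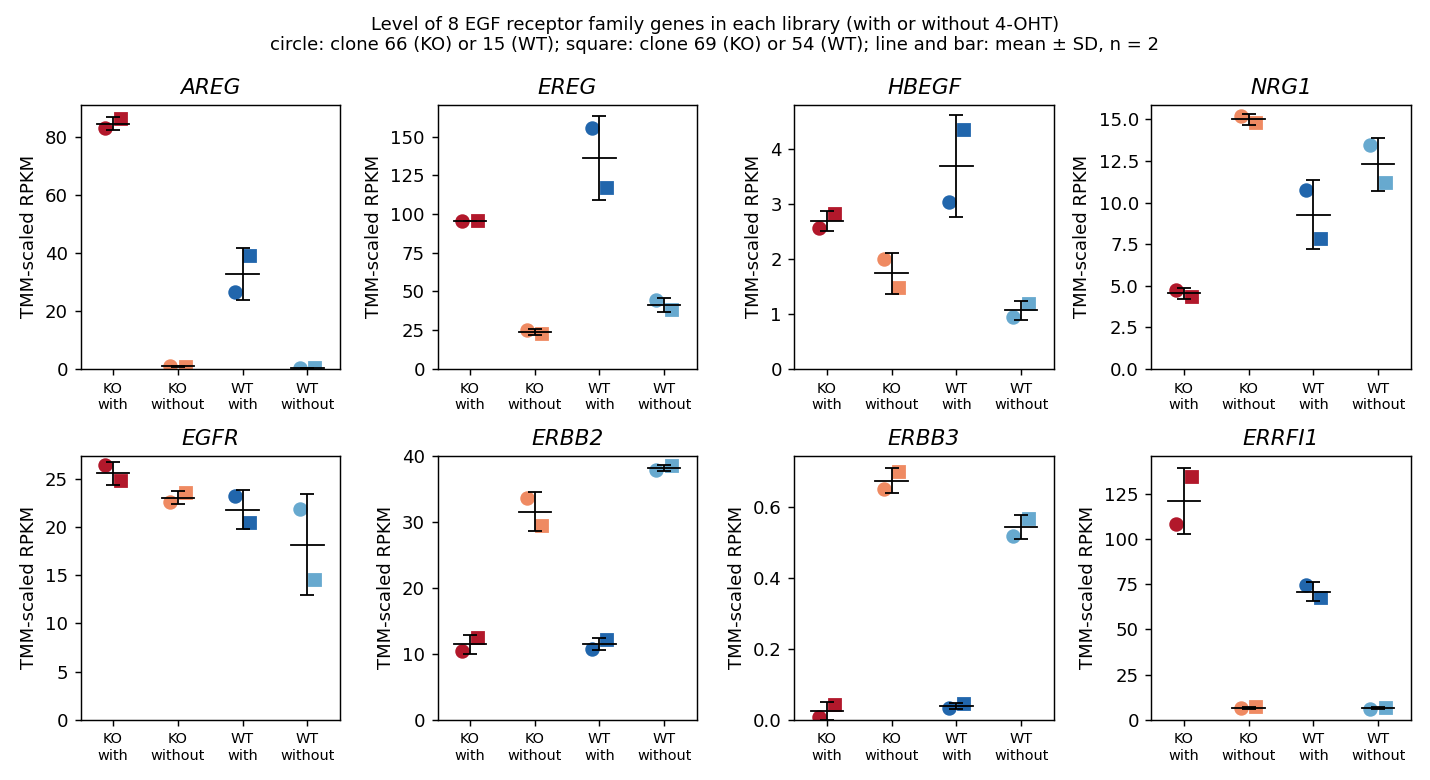
TMM-scaled RPKM (vertical axes, each from 0) of the 8 tested genes in every library, by genotype and 4-OHT, with points for clones and bars for mean ± SD (n = 2). AREG stands at 82.9 and 86.0 RPKM in KO with 4-OHT and 26.3 and 39.0 in WT with 4-OHT, and under 1 in all 4 libraries without it.

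The ligand genes AREG and EREG lie on the plus strand of chromosome 4 (GRCh38), EREG (ENSG00000124882.4) at chr4:74365143-74388751 and AREG (ENSG00000109321.11) at chr4:74445134-74455009, with 56.4 kb between them; BTC lies 289.7 kb beyond AREG on the minus strand. HBEGF (ENSG00000113070.8) lies on the minus strand of chromosome 5 at chr5:140332843-140346631. No annotated gene overlaps these 3. Because they moved with 4-OHT, the 250 bases before their RefSeq start sites (GRCh38.p14) are shown, 5′ to 3′ on the strand of the gene. Capitals mark matches, on either strand, to 5 motifs that were searched in all 35116 RefSeq windows of this length. The AP-1 motif was spelled TGANTCA and was present in 6.57% of those windows. The cyclic AMP response element (CRE) was spelled TGACGTCA and was present in 1.65% of them. The ETS motif, spelled CGGAAG here, was present in 16.5%. The GC box was searched as GGGCGG and was present in 42.6%. The TATA box was searched as TATAAA and was present in 10.7%. The AREG window is chr4:74444886-74445135, the EREG window chr4:74364895-74365144 and the HBEGF window, on the minus strand, chr5:140346604-140346853.
AREG: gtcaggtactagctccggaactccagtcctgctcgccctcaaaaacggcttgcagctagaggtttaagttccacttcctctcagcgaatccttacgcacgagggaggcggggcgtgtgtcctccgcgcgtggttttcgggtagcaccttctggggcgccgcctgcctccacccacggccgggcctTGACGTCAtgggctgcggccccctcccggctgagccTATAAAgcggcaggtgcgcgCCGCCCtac
EREG: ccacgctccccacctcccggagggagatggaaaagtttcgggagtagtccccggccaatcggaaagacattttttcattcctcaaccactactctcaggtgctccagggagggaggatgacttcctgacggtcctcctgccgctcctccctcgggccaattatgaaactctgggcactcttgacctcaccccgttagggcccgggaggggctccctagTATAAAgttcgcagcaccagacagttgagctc
HBEGF: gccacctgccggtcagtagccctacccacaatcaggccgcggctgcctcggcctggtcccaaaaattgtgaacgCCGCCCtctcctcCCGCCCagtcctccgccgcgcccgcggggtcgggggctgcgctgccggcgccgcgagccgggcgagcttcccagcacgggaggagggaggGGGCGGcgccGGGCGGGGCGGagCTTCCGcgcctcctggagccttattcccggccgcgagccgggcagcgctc
The AREG window held a CRE match beginning 65 bases before the start, a TATA box match 29 bases before it and a GC box match at 9 bases. The EREG window held a TATA box match 32 bases before the start and no other of the 5 motifs. The HBEGF window held 5 GC box matches, among them a pair 63 and 58 bases before the start that share 1 base, and an ETS match. RefSeq windows were used for 8 of the 10 genes, all but NRG1 and ERBB3. EGFR, not called with 4-OHT, had a window with 2 GC box matches (chr7:55018767-55019016). Another EGFR window held 2 AP-1 and 2 TATA box matches (chr7:55109589-55109838). A TGFA window held 3 GC box matches, while another TGFA window and the BTC window held none of the 5 motifs. A match describes letters only and is no evidence of binding.

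Amphiregulin, the ligand encoded by AREG, is a low-affinity ligand of the EGF receptor made by many epithelia and stromal cells. AREG measured 82.9 and 86.0 RPKM in KO clones 66 and 69 with 4-OHT, against 0.914 and 0.796 RPKM in the same clones without it. In WT clones 15 and 54 it measured 26.3 and 39.0 RPKM with 4-OHT, against 0.375 and 0.428 RPKM without. All libraries with 4-OHT stood far above all libraries without, whose values rest on 11 to 27 reads. The increase was 88.7-fold in KO (log2 6.47 ± 0.18, SE; adjusted p = 1.05e-06) and 64.2-fold in WT (log2 6.005 ± 0.18; adjusted p = 2.2e-06). Its size depends on the 0.1 RPKM added to each value: with 1 RPKM added the increase was 46.1-fold in KO and 23.6-fold in WT, and it passed the test in both. Clone by clone the increase was 81.9- and 96.1-fold in KO clones 66 and 69 and 55.7- and 74.1-fold in WT clones 15 and 54. Of the 8 tested genes AREG had the highest estimate in both genotypes.

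Epiregulin (EREG), a ligand of EGFR and ERBB4, was already the ligand gene with the highest level without 4-OHT. EREG measured 95.5 and 95.2 RPKM in the KO clones with 4-OHT, against 25.1 and 22.6 RPKM without. In the WT clones it measured 156 and 117 RPKM with 4-OHT, against 44.5 and 38.1 RPKM without. The groups did not overlap: WT with 4-OHT was highest, then KO with 4-OHT, WT without and KO without. The increase was 3.99-fold in KO (log2 1.997 ± 0.14; adjusted p = 3.01e-05) and 3.27-fold in WT (log2 1.71 ± 0.14; adjusted p = 8.56e-05).

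HBEGF, whose membrane-bound precursor also serves as the diphtheria toxin receptor, was low in all libraries. It measured 2.55 and 2.81 RPKM in the KO clones with 4-OHT, against 2.001 and 1.48 RPKM without. In the WT clones it measured 3.02 and 4.34 RPKM with 4-OHT, against 0.945 and 1.18 RPKM without. The libraries with 4-OHT were above those without in both genotypes. In WT the increase was 3.22-fold (log2 1.69 ± 0.23; adjusted p = 0.000779). In KO the estimate was 1.53-fold and did not pass the test (log2 0.61 ± 0.23; adjusted p = 0.0536). With the clone as a replicate block the KO value passed (adjusted p = 0.0359), as it did with voom on the recovered reads (0.0344), on the 4 KO libraries alone (0.0264), and without WT clone 15 with 4-OHT (0.0388), WT clone 54 with 4-OHT (0.0438) WT clone 54 without 4-OHT (0.0495) or WT clone 15 without 4-OHT (0.05 after rounding).

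NRG1 (ENSG00000157168.19, chr8:31639386-32767959, plus strand) encodes neuregulin 1, a ligand of ERBB3 and ERBB4 made by many mesenchymal cells, and its estimates were below 0 in both genotypes. It measured 4.76 and 4.31 RPKM in the KO clones with 4-OHT, against 15.2 and 14.8 RPKM without. In the WT clones it measured 10.7 and 7.81 RPKM with 4-OHT, against 13.4 and 11.2 RPKM without. The KO libraries with 4-OHT were the lowest and the KO libraries without it the highest, with WT between. NRG1 fell 3.26-fold in KO (log2 -1.71 ± 0.16; adjusted p = 0.000102). In WT the estimate was 1.33-fold lower and did not pass (log2 -0.41 ± 0.16; adjusted p = 0.0657). The WT value passed with the clone as a replicate block (adjusted p = 0.0131), with voom (0.0343), without WT clone 15 with 4-OHT (0.0132) and without WT clone 54 without 4-OHT (0.0414).

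TGFA and BTC were close to the limit of detection. TGFA had 0 reads in both KO libraries with 4-OHT, 1 read in each without, 2 and 0 reads in WT clones 15 and 54 with 4-OHT and 1 and 3 without. BTC had 0 reads in all 4 libraries with 4-OHT, and 0 and 3 reads in KO clones 66 and 69 and 0 and 2 reads in WT clones 15 and 54 without it. Where no read was found, up to 3 reads remain possible, which is 0.0310 to 0.0329 RPKM for TGFA and 0.0453 to 0.0511 RPKM for BTC. These limits cover counting error only, and neither gene was compared between groups. Of the family genes outside the 10, EGF was the 1 that passed the filter: it averaged 0.802 ± 0.256 RPKM in KO with 4-OHT, 0.896 ± 0.101 in KO without, 0.801 ± 0.078 in WT with and 1.14 ± 0.30 in WT without (SD, n = 2 each), and was called in no comparison. EPGN, NRG2, NRG3, NRG4 and ERBB4 had at most 20 reads in any library.

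The levels of the ligand genes were set side by side per kilobase of listed transcript. The 6 ligand genes summed to 186 and 188 RPKM in KO clones 66 and 69 with 4-OHT, against 43.3 and 39.7 RPKM without, and to 196 and 168 RPKM in WT clones 15 and 54 with 4-OHT, against 59.2 and 50.9 RPKM without. AREG made up 44.6% and 45.6% of that sum in KO with 4-OHT and 13.5% and 23.2% in WT with 4-OHT. Without 4-OHT it made up 2.11% and 2.01% in KO and 0.632% and 0.841% in WT. AREG stood at 0.868 and 0.903 of EREG in KO with 4-OHT and at 0.169 and 0.333 of EREG in WT with 4-OHT. By listed length the KO libraries with 4-OHT thus carried near-equal levels of both, and the WT libraries with 4-OHT more EREG. Per kilobase of all exons AREG would average 63.2 RPKM and EREG 77.0 in KO with 4-OHT, against 24.5 and 110.1 in WT with 4-OHT. Without 4-OHT the ratio was 0.0364 and 0.0353 in KO and 0.00842 and 0.0112 in WT. NRG1 made up 35.2% and 37.2% of the sum in KO without 4-OHT and 22.7% and 21.9% in WT without, and 2.29% to 5.49% in the 4 libraries with 4-OHT. The length behind the NRG1 values, inferred from their own steps, is 2281 bases, while all its exons span 11328. Per kilobase of all exons, a length chosen after seeing the data, NRG1 would average 3.02 RPKM in KO without 4-OHT in place of 15.0. Such values by all exons, here for AREG, EREG and NRG1, assume that reads were counted over all exons, which the sources used here do not state. These sums and ratios are descriptions, with no test.

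**Figure D2:**
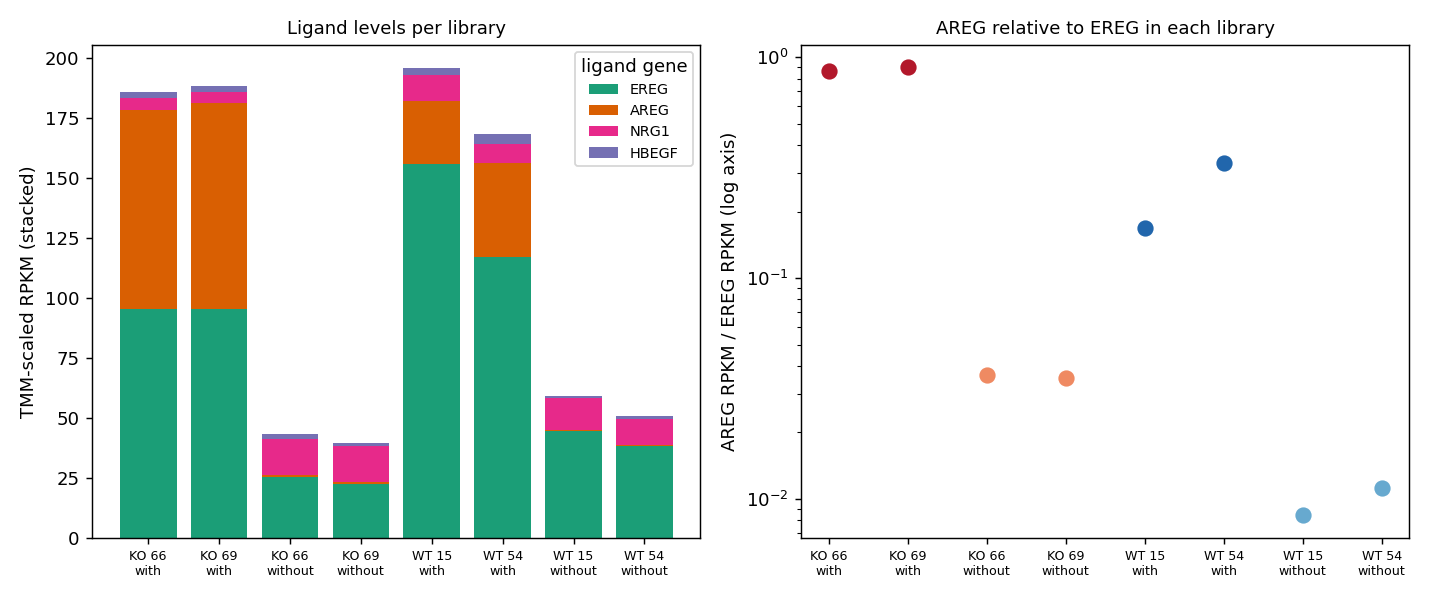
Left, stacked TMM-scaled RPKM of the 4 tested ligand genes in each library; right, AREG divided by EREG in each library on a log axis. The ligand sum lies between 168 and 196 RPKM in the 4 libraries with 4-OHT, and the AREG to EREG ratio is 0.868 and 0.903 in KO with 4-OHT and 0.169 and 0.333 in WT with 4-OHT.

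Of the receptors, EGFR (ENSG00000146648.18, chr7:55019021-55211628, plus strand) showed little change. It measured 26.4 and 24.8 RPKM in the KO clones with 4-OHT, against 22.6 and 23.5 RPKM without. In the WT clones it measured 23.2 and 20.4 RPKM with 4-OHT, against 21.9 and 14.4 RPKM without. The WT groups overlapped, and WT clone 54 without 4-OHT was the lowest library. The log2 difference was 0.15 ± 0.18 in KO (adjusted p = 0.501) and 0.29 ± 0.18 in WT (adjusted p = 0.216). Without WT clone 15 without 4-OHT the WT estimate was 0.59 and passed (adjusted p = 0.00476), and without WT clone 54 without 4-OHT it was -0.02 (adjusted p = 0.887). The antisense gene EGFR-AS1 overlaps EGFR and had 1 to 14 reads per library.

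ERBB2 (ENSG00000141736.13, chr17:39687914-39730426, plus strand), which encodes the partner receptor without a ligand, fell in both genotypes. Its level was 10.4 and 12.4 RPKM in the KO clones with 4-OHT, against 33.7 and 29.4 RPKM without. WT clones 15 and 54 measured 10.8 and 12.1 RPKM with 4-OHT, against 37.8 and 38.5 RPKM without. All libraries with 4-OHT were below all libraries without. The fall was 2.75-fold in KO (log2 -1.46 ± 0.11; adjusted p = 4.28e-05) and 3.32-fold in WT (log2 -1.73 ± 0.11; adjusted p = 3.28e-05). EGFR stood at 2.53 and 1.99 of ERBB2 in KO with 4-OHT, against 0.670 and 0.798 in KO without. In WT it stood at 2.15 and 1.68 of ERBB2 with 4-OHT, against 0.579 and 0.376 without. Per kilobase of all exons in place of the listed transcripts, EGFR would average 20.2 RPKM and ERBB2 5.31 in KO with 4-OHT, against 18.2 and 14.65 in KO without, and 17.2 and 5.32 in WT with 4-OHT, against 14.4 and 17.7 in WT without. With 4-OHT EGFR was the higher of both by either length, and without it their order in KO depended on the length. The values by all exons assume that reads were counted over all exons, which the sources used here do not state. The minus-strand genes PGAP3 and MIEN1 overlap ERBB2, and the strand setting of the counting is not given in the sources used here. PGAP3 moved with ERBB2, at 220 and 233 reads in KO with 4-OHT and 620 and 700 in KO without. In WT it had 231 and 307 reads with and 768 and 807 without, where ERBB2 had 1115 to 4311 reads. MIEN1 changed little, at 1220 and 1287 reads in KO with 4-OHT and 1471 and 1561 in KO without. In WT it had 1684 and 1521 reads with and 1509 and 1365 without. Whether reads of the overlap were shared was not tested. Shown because ERBB2 fell where the ligand genes rose, its upstream window (chr17:39687844-39688093) held an ETS match and an AP-1 match side by side, 228 and 222 bases before the start, and ETS matches 26 and 13 bases before it.
ERBB2: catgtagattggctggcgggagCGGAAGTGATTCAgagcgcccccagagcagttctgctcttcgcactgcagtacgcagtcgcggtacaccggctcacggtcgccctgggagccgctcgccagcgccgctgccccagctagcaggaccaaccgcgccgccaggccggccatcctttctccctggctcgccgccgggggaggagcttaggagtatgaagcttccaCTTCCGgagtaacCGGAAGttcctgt
No CRE, GC box or TATA box letters were in this window.

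ERBB3 (ENSG00000065361.15, chr12:56076799-56103505, plus strand), the receptor of neuregulins, was the lowest of the 3 receptors. KO clones 66 and 69 measured 0.00758 and 0.0428 RPKM with 4-OHT, which are 1 and 6 reads, against 0.649 and 0.699 RPKM without. WT clones 15 and 54 measured 0.0336 and 0.0455 RPKM with 4-OHT, which are 5 and 6 reads, against 0.518 and 0.566 RPKM without. The gene passed the filter through the libraries without 4-OHT alone, so it had to differ. Its fitted fall (log2 -2.64 ± 0.23 in KO and -2.20 ± 0.23 in WT) is given as a description, without a test. Its size moved with the pseudocount and the method, between 1.63-fold with 1 RPKM added and 29.1-fold with voom in KO, and between 1.48- and 12.8-fold in WT. On summed reads it was 26.2-fold lower in KO with 4-OHT, 7 reads against 193 (95% exact binomial interval of the ratio 12.5 to 66.0). In WT it was 13.8-fold lower, 11 reads against 149 (7.50 to 28.2). These intervals pool the reads of 2 clones and cover counting error only, not the spread between clones.

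ERRFI1 (ENSG00000116285.13, chr1:8004404-8026308, minus strand) encodes the feedback inhibitor of the receptor kinases. It measured 108 and 134 RPKM in the KO clones with 4-OHT, against 6.28 and 7.01 RPKM without. In the WT clones it measured 74.5 and 67.2 RPKM with 4-OHT, against 6.14 and 6.71 RPKM without. The groups with 4-OHT were far above those without, which overlapped each other. The increase was 17.9-fold in KO (log2 4.16 ± 0.12; adjusted p = 1.21e-06) and 10.9-fold in WT (log2 3.44 ± 0.12; adjusted p = 3.06e-06). Its RPKM is divided by a listed transcript of 479 bases, while all its exons span 4186 bases. Per kilobase of all exons, a length chosen after seeing the data, it would stand at 13.9 RPKM in KO with 4-OHT, 0.760 in KO without, 8.11 in WT with and 0.736 in WT without. These values by all exons assume that reads were counted over all exons, which the sources used here do not state. By listed length ERRFI1 ranked first of the 10 genes in KO with 4-OHT and behind EREG alone in WT with 4-OHT. By all exons, on the same assumption, it ranked behind EREG, AREG and EGFR in both. Its fold changes do not depend on this length except through the 0.1 RPKM added. An antisense gene, AL034417.4, had 0 to 6 reads per library. The upstream window (chr1:8026310-8026559, minus strand), shown because the gene rose with the ligands, held a GC box match 70 bases before the start and none of the other motifs.
ERRFI1: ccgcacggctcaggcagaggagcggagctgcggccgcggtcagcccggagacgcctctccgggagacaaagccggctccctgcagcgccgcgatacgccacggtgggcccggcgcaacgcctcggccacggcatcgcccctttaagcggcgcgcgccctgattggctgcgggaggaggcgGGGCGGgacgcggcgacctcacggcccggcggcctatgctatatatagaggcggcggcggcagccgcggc
The GC box letters are those found in 42.6% of windows.

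**Figure D3:**
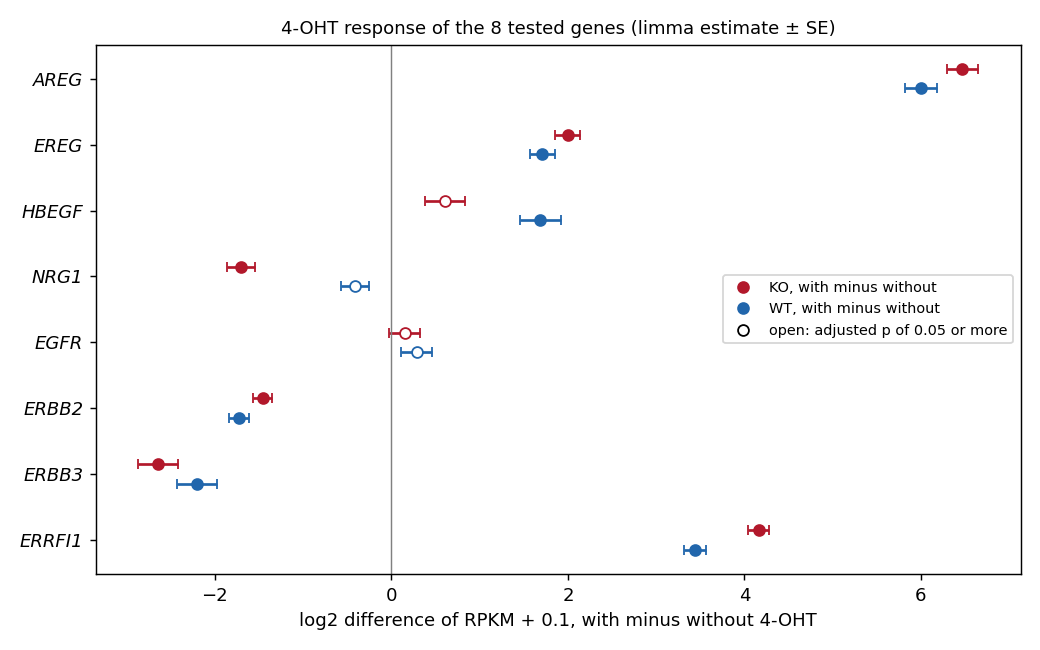
Log2 difference with minus without 4-OHT (limma estimate ± SE) of the 8 tested genes, KO above WT for each gene; open points had an adjusted p of 0.05 or more. AREG, EREG and ERRFI1 lie right of 0 and ERBB2 and ERBB3 left of 0 in both genotypes, while NRG1 is at -1.71 in KO and -0.41 in WT.

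Between the genotypes with 4-OHT, AREG and ERRFI1 were higher in KO and NRG1 was lower. That is 2 of the 8 tested genes higher and 1 lower, where 6.77% of all genes were higher in KO and 7.63% lower. AREG was 2.63-fold higher in KO (log2 1.39 ± 0.18; adjusted p = 0.00681), ERRFI1 was 1.70-fold higher (log2 0.77 ± 0.12; adjusted p = 0.0103) and NRG1 was 1.999-fold lower (log2 -1.0 ± 0.16; adjusted p = 0.0105). The KO and WT libraries with 4-OHT did not overlap for these 3 genes, nor for EREG, HBEGF and EGFR, which were not called. With 2 libraries in each group such separation can arise without any true difference. Its share over all genes was not computed, so it is given as a description only. EREG was 0.707-fold in KO and did not pass (log2 -0.50 ± 0.14; adjusted p = 0.0555), although it did with voom (0.0245) and without WT clone 54 with 4-OHT (0.0273), WT clone 15 without 4-OHT (0.0427) or WT clone 54 without it (0.0448). HBEGF (log2 -0.42 ± 0.23; adjusted p = 0.26), EGFR (0.23 ± 0.18; adjusted p = 0.423), ERBB2 (-0.01 ± 0.11; adjusted p = 0.982) and ERBB3 (-0.17 ± 0.23; adjusted p = 0.669) did not pass. Without KO clone 69 with 4-OHT none of the 3 calls held (adjusted p = 0.0643 for AREG, 0.0698 for ERRFI1 and 0.0837 for NRG1). Without WT clone 15 with 4-OHT, the library with the low share of signal recognition particle RNA, AREG passed and the calls of ERRFI1 (adjusted p = 0.0523) and NRG1 (0.055) ended. HRAS, whose reads may come from a transgene as well as from the endogenous gene, measured 346 ± 20 RPKM in KO with 4-OHT and 290 ± 15 in WT with 4-OHT (SD, n = 2 each; log2 0.26 ± 0.08, adjusted p = 0.0739). The part of HRAS in these differences was not tested.

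Without 4-OHT, AREG was higher and EREG lower in KO, that is 1 of the 8 tested genes each way, where 2.84% of all genes were higher and 3.73% lower. AREG averaged 0.855 ± 0.083 RPKM in KO and 0.402 ± 0.038 in WT (SD, n = 2 each; log2 0.93 ± 0.18, adjusted p = 0.0306), and EREG averaged 23.8 ± 1.8 RPKM in KO and 41.3 ± 4.5 in WT (log2 -0.79 ± 0.14, adjusted p = 0.0249). Neither pair of groups overlapped, nor did those of HBEGF, NRG1, EGFR, ERBB2 and ERBB3, which were not called. Groups of 2 libraries each can separate without any true difference. The share of all genes that separate in this way was not computed, so the separation is no result about these genes. Both calls were fragile: they ended without KO clone 66 without 4-OHT (adjusted p = 0.159 for AREG and 0.112 for EREG), KO clone 69 without 4-OHT (0.14 and 0.169), KO clone 66 with 4-OHT (0.0673 and 0.0555) or KO clone 69 with 4-OHT (0.0706 and 0.0536). They also ended with no filter (0.0918 for AREG and 0.0757 for EREG) and on the 4 libraries without 4-OHT alone (0.122 and 0.0579). The AREG call ended also with a pseudocount of 1 (0.172), with voom (0.347), and without WT clone 15 (0.0536) or WT clone 54 (0.0719) without 4-OHT. EGFR, not called here (log2 0.37 ± 0.18; adjusted p = 0.242), passed without WT clone 15 without 4-OHT (log2 0.67; adjusted p = 0.0131). The other 5 tested genes did not pass, with log2 differences between -0.28 for ERBB2 and 0.66 for HBEGF.

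**Figure D4:**
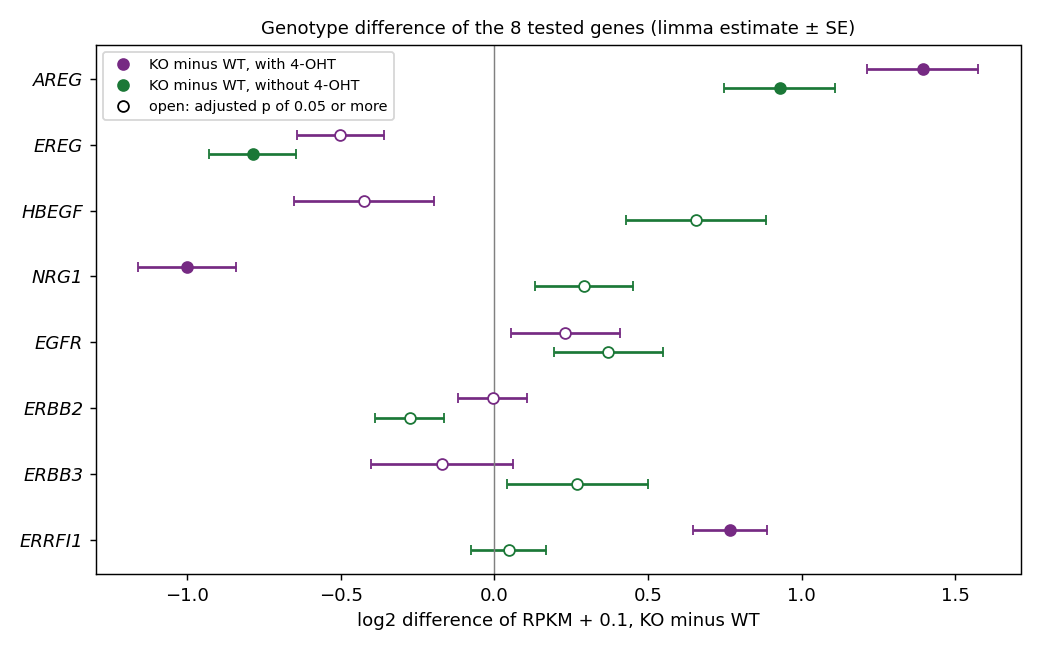
Log2 difference KO minus WT (limma estimate ± SE) of the 8 tested genes, with 4-OHT above without for each gene; open points had an adjusted p of 0.05 or more. With 4-OHT AREG (1.39) and ERRFI1 (0.77) lie right of 0 and NRG1 (-1.0) left of it.

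Whether the response to 4-OHT itself differed between the genotypes was tested as the KO response minus the WT response. NRG1 fell more in KO, by 1.29 ± 0.23 on the log2 scale (adjusted p = 0.0192), and ERRFI1 rose more in KO, by 0.72 ± 0.17 (adjusted p = 0.048). That is 1 of the 8 tested genes in each direction, where 4.36% of all genes had a higher and 3.22% a lower response in KO. By clone, NRG1 stood at 0.317- and 0.297-fold with 4-OHT in KO clones 66 and 69 and at 0.801- and 0.702-fold in WT clones 15 and 54. ERRFI1 rose 17.0- and 18.9-fold in the KO clones and 11.9- and 9.88-fold in the WT clones. HBEGF stood at 1.26- and 1.85-fold in the KO clones and 2.99- and 3.48-fold in the WT clones, and its difference of -1.08 ± 0.32 did not pass (adjusted p = 0.0888). The responses of AREG (0.47 ± 0.26; adjusted p = 0.304), EREG (0.29 ± 0.20; adjusted p = 0.415), ERBB2 (0.27 ± 0.16; adjusted p = 0.334), EGFR (-0.14 ± 0.25; adjusted p = 0.769) and ERBB3 (-0.44 ± 0.33; adjusted p = 0.443) were not shown to differ; with a pseudocount of 1 the AREG value was 0.97 and passed (adjusted p = 0.0484). The NRG1 call ended without KO clone 66 (adjusted p = 0.0792) or 69 (0.0801) without 4-OHT, without KO clone 66 (0.0524) or 69 (0.0844) with 4-OHT, and with no filter (0.0701). The ERRFI1 call, close to the threshold, ended with a pseudocount of 0.01 (0.0506), library size only (0.0608), no filter (0.134), voom (0.139), and without KO clone 66 (0.154) or 69 (0.112) without 4-OHT, KO clone 69 with 4-OHT (0.121), WT clone 54 without 4-OHT (0.0902) or WT clones 15 (0.0962) or 54 (0.115) with it. HRAS also responded more in KO, by 0.55 ± 0.11 (adjusted p = 0.0318). It averaged 346 ± 20 RPKM in KO with 4-OHT, against 202 ± 3 in KO without, and 290 ± 15 RPKM in WT with 4-OHT, against 247 ± 15 in WT without; its part in the NRG1 and ERRFI1 differences was not tested.

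The genes around the receptors were described from 4 lists, by counts and medians beside those of all genes tested. The genes that ERK signalling is known to induce stood at a median of 4.82-fold with 4-OHT in KO and 4.89-fold in WT, against 0.986-fold and 0.990-fold over all genes, and 12 of 14 rose and 2 fell in each genotype, where 27.9% of all genes rose and 27.8% fell in KO and 24.7% rose and 24.2% fell in WT. SPRY4, an inhibitor of the pathway, measured 48.7 ± 7.1 RPKM in KO with 4-OHT against 2.79 ± 0.26 without, a 16.8-fold increase (adjusted p = 1.97e-06), and it rose 13.4-fold in WT (adjusted p = 3.26e-06). Its relatives SPRY2 and SPRED1 rose 8.53- and 4.47-fold in KO (adjusted p = 1.97e-06 and 2.24e-06) and 9.61- and 4.89-fold in WT (adjusted p = 2.21e-06 and 2.4e-06). PHLDA1 rose 10.2-fold in KO (adjusted p = 6.49e-07) and 8.41-fold in WT (adjusted p = 9.31e-07). DUSP6, a phosphatase of ERK, rose 4.34-fold in KO (adjusted p = 1.19e-05) and 8.06-fold in WT (adjusted p = 4.31e-06). Its KO response minus WT response was -0.89 ± 0.16 on the log2 scale (limma adjusted p = 0.0218). For EGR1 that difference was 1.24 ± 0.27 (adjusted p = 0.0375). That is 1 of the 14 genes lower and 1 higher in KO response, where 3.22% of all genes were lower and 4.36% higher. The 2 genes of this list that fell with 4-OHT were SPRY1 and EGR1. SPRY1 rested on few reads in KO, 4 and 20 with 4-OHT against 80 and 57 without (adjusted p = 0.00546). In WT it had 6 and 8 reads with 4-OHT against 34 and 19 without (adjusted p = 0.0489, close to the threshold). EGR1, an immediate early transcription factor, fell 1.69-fold in KO (adjusted p = 0.0118; 0.0506, 0.0578 and 0.0672 without KO clone 66 or 69 without 4-OHT or KO clone 69 with it) and 3.99-fold in WT (adjusted p = 0.000165).

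The proteases that release the ligands, with their carriers and inhibitor, had 11 of 12 genes tested. In KO 5 rose and 1 fell (median 1.16-fold), and in WT 4 rose and 1 fell (median 1.08-fold), beside 27.9% higher and 27.8% lower of all genes in KO and 24.7% and 24.2% in WT. The sheddase gene ADAM19 rose 3.67-fold in KO and 3.65-fold in WT (adjusted p = 2.13e-05 and 3.29e-05), while ADAM10, a sheddase of betacellulin, fell 1.73-fold in KO and 1.42-fold in WT (adjusted p = 0.000825 and 0.00856). TIMP3, an inhibitor of ADAM proteases, rose 3.92-fold in KO (adjusted p = 9.28e-06) and 3.24-fold in WT (adjusted p = 2.17e-05), at 180.1 ± 21.9 RPKM in KO with 4-OHT and 282 ± 6 in WT with 4-OHT. FRMD8, which stabilises the carriers of ADAM17, rose 1.63-fold in KO (adjusted p = 0.00122) and 1.35-fold in WT (adjusted p = 0.0135; 0.0607 and 0.0579 without WT clone 15 or 54 with 4-OHT and 0.054 on the 4 WT libraries alone). Genes that act for release (ADAM19) and against it (TIMP3) both rose. ADAM17 passed in neither genotype, at 0.95-fold in KO (adjusted p = 0.621) and 1.001-fold in WT (adjusted p = 0.991).

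All 20 adaptors and effectors were tested. In KO 7 rose and 7 fell (median 0.996-fold), and in WT 10 rose and 4 fell (median 1.19-fold). Over all genes tested, 27.9% rose and 27.8% fell in KO and 24.7% rose and 24.2% fell in WT. NRAS rose 1.43-fold in KO (adjusted p = 0.000587) and 1.63-fold in WT (adjusted p = 0.000186). The docking protein gene GAB2 fell 3.49-fold in KO (adjusted p = 6.74e-05) and 2.95-fold in WT (adjusted p = 0.000189), and PIK3R1, a regulatory subunit of PI3 kinase, fell 2.27-fold in KO (adjusted p = 7.72e-05) and 1.70-fold in WT (adjusted p = 0.000805). MAP2K1, the kinase MEK1, rose 1.55-fold in WT (adjusted p = 0.000801) and stood at 1.06-fold in KO (adjusted p = 0.438). HRAS, also in the list, rose 1.72-fold in KO (adjusted p = 0.000154). Its 1.18-fold increase in WT (adjusted p = 0.0442) was not called with the clone as a replicate block (0.0633), with library size only (0.102), with no filter (0.071), on the 4 WT libraries alone (0.127), or when any library other than WT clone 15 without 4-OHT was left out (0.0586 to 0.208).

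All 19 inhibitors and turnover genes were tested. In KO 8 rose and 6 fell (median 0.975-fold), and in WT 9 rose and 5 fell (median 1.12-fold), next to shares of 27.9% up and 27.8% down over all genes in KO and 24.7% and 24.2% in WT. SH3KBP1, which links CBL to endocytosis of the receptor, rose 3.19-fold in KO (adjusted p = 1.09e-05) and 3.76-fold in WT (adjusted p = 9.92e-06). UBASH3B, which slows receptor degradation, rose 2.66-fold in KO (adjusted p = 7.48e-05) and 2.77-fold in WT (adjusted p = 9.25e-05). The membrane protein gene LRIG3 fell 3.04-fold in KO (adjusted p = 5.33e-05) and 3.81-fold in WT (adjusted p = 3.71e-05), and SOCS5 fell 1.71-fold in KO (adjusted p = 0.000112) and 1.66-fold in WT (adjusted p = 0.000218). None of the 4 named genes of this list moved as far as ERRFI1, at 17.9-fold in KO and 10.9-fold in WT.

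**Figure D5:**
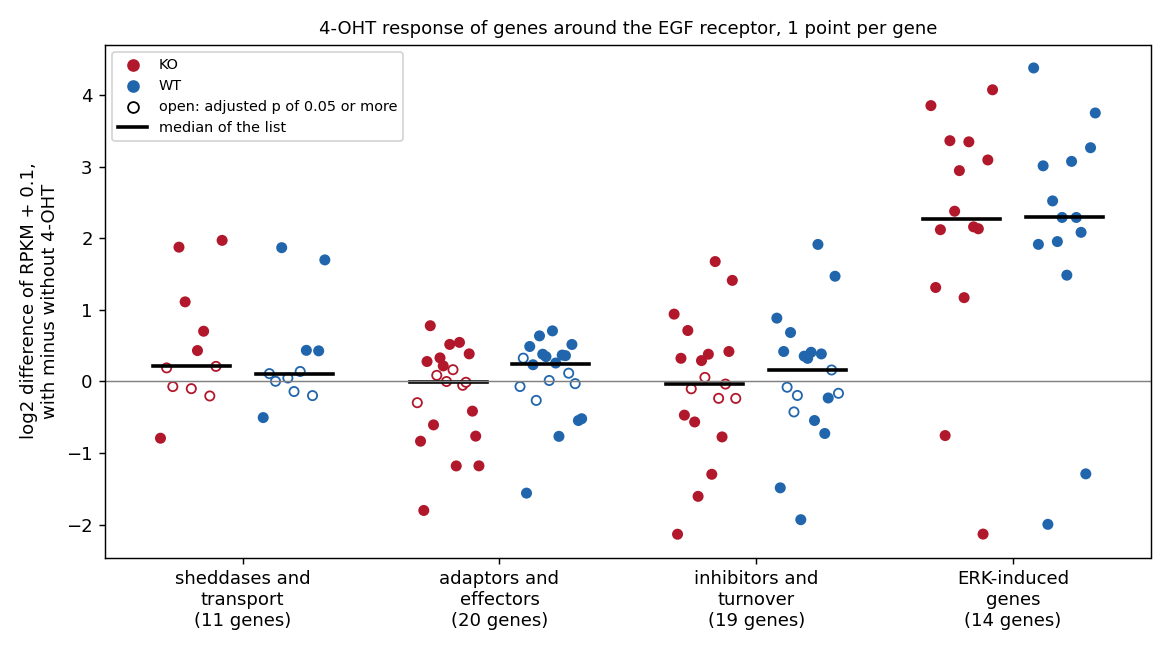
Log2 difference with minus without 4-OHT of each tested gene in 4 lists of genes around the EGF receptor, KO left of WT, with open points for an adjusted p of 0.05 or more and bars for medians. The ERK-induced genes have medians of 2.27 in KO and 2.29 in WT, and the other lists have medians between -0.04 and 0.25.

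Between the genotypes with 4-OHT these lists held few calls: 0 higher and 1 lower of 11 for the proteases, 0 and 3 of 20 for the adaptors and effectors, 0 and 2 of 19 for the inhibitors and 1 and 1 of 14 for the ERK-induced genes, beside the 6.77% higher and 7.63% lower of all genes. TIMP3 was 1.57-fold lower in KO (adjusted p = 0.00935; 0.0721 without KO clone 69 and 0.0674 without WT clone 15, both with 4-OHT). The transcription factor gene STAT3 was 1.56-fold lower (adjusted p = 0.00522; 0.0529 without KO clone 69 with 4-OHT), and the adaptor gene SHC1 1.37-fold lower (adjusted p = 0.0112; 0.0596, 0.0824 and 0.0775 without KO clone 66, KO clone 69 or WT clone 15 with 4-OHT). UBASH3B was 1.65-fold lower (adjusted p = 0.0127; 0.0939 without KO clone 69 and 0.0863 without WT clone 15, both with 4-OHT). PTPRK, a receptor phosphatase, was 1.40-fold lower (adjusted p = 0.0289), a call that ended with no filter (0.0808) and without any one of the 4 libraries with 4-OHT or the 2 KO libraries without it (0.0647 to 0.178). EGR1 was 1.88-fold higher in KO (adjusted p = 0.0236), a call that ended with no filter (0.0769) and without any of the same 6 libraries (0.0507 to 0.104). DUSP6 was 1.39-fold lower (adjusted p = 0.0364), a call that ended with no filter (0.103), on the 4 libraries with 4-OHT alone (0.0511) and without any of those 6 but WT clone 54 (0.0755 to 0.195). SPRY4, SPRY2, SPRED1 and PHLDA1, all induced by 4-OHT, had log2 differences between KO and WT of -0.42, -0.05, -0.09 and 0.02 with 4-OHT, which did not pass (adjusted p = 0.0797, 0.77, 0.489 and 0.873).

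The genes whose log2 levels followed the members most closely over the 8 libraries were picked by Pearson r among genes that varied at least 0.5 times as much. The 8 libraries fall into groups with and without 4-OHT that all these genes separate, so the values describe likeness and carry no test. Closest to AREG were LTBP1 (r = 0.9962), a binding protein of latent TGF-beta, the transcription factor gene SOX9 (0.9936) and the cytokine receptor gene IL31RA (0.9935). LTBP1, like AREG, was highest in KO with 4-OHT, at 30.6 and 27.3 RPKM against 2.49 and 2.09 in KO without, and measured 17.9 and 19.4 RPKM in WT with 4-OHT against 1.42 and 2.11 in WT without. Closest to ERRFI1 were F2RL1 (r = 0.9984), a receptor activated by proteases, LRP8 (0.9974) and again IL31RA (0.9972). F2RL1 measured 18.7 and 20.0 RPKM in KO with 4-OHT against 0.511 and 0.515 in KO without, and 11.8 and 10.4 RPKM in WT with 4-OHT against 0.558 and 0.662 in WT without. Closest to EREG were TFPT (r = 0.9957), SH3RF3 (0.9940) and the transcription factor gene PITX1 (0.9933). PITX1 measured 71.6 and 66.0 RPKM in KO with 4-OHT against 18.2 and 17.0 in KO without, and 109 and 94.9 RPKM in WT with 4-OHT against 30.3 and 33.3 in WT without. Closest to HBEGF, at lower r, were NDUFAF8 (0.9821), RGMB (0.9761) and POLB (0.9726). NDUFAF8 measured 132.5 and 157.5 RPKM in KO with 4-OHT against 94.6 and 92.3 in KO without, and 187 and 239.8 RPKM in WT with 4-OHT against 56.0 and 73.7 in WT without, so its 4 groups stood in the same order as those of HBEGF.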

How the data were processed

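Total RNA of 8 libraries was made into stranded total RNA libraries, per the labels' protocols. STAR, featureCounts and edgeR were used with GRCh38, per the submitters' processing notes; the sources used here give neither versions nor settings, strand included. A single table covering 58870 genes was deposited by the authors, and its values are RPKM. Per the file headers its columns carry clone numbers, and a minus sign was read as 4-OHT negative and a bare number as 4-OHT positive, which no label spells out. For the 51380 genes whose listed transcript is in GENCODE 29, values times its length and 1 library total gave whole reads (within 0.1 read) for 100.0% of values above 0, with library totals of 22.1 to 24.9 M reads. For 6676 other genes, among them AREG, EREG, HBEGF, TGFA, BTC, NRG1 and EGFR, the length was taken as the smallest that makes their own values whole reads, so their reads are whole by construction. The 45 pseudoautosomal Y copies were left out.

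RPKM was divided by trimmed-mean (TMM) factors of 0.9536 to 1.0292 computed from these reads. Genes were kept with a CPM of 0.425 (10 reads in a library of median size) in 2 libraries and 15 reads in all. Group means of the 4 groups were fitted to log2(RPKM + 0.1) of the 8 libraries with limma 3.58.1 (R 4.3.3), using trend and robust moderation, with 4 residual degrees of freedom. P-values are two-sided and adjusted over 16542 genes at 0.05. The same clone was sampled with and without 4-OHT per the labels, so the clone pairs the samples; deviations from the group means correlated at r = 0.005 in KO and 0.309 in WT over 16542 genes. Clones of a group correlated at 0.9836 to 0.9920. P-values measure the spread between the libraries of a group, moderated over all genes. Each library of a group is a different clone, so spread between clones and between libraries cannot be told apart. The main fit does not use the pairing. The statistics were tested on simulated data. Members, gene lists, motifs and the rule for named genes (up to 4 per list by p in the WT response, up to 2 by p among calls between genotypes with 4-OHT) were chosen with earlier results of these data known. Alternatives were pseudocounts of 1 and 0.01, no filter, library size only, limma-voom on the recovered reads, only the 4 libraries compared, the clone as replicate block, each library left out, and, added after seeing the data, levels per length of all exons.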

Additional observations from a re-analysis of the deposited data

Results flagged for a closer look

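The response to 4-OHT differed between the genotypes by the interaction term for 2 of the 8 tested genes, 1 in each direction, where 4.36% of all genes had a higher and 3.22% a lower response in KO. Neither call held throughout: of 14 alternatives 5 ended that of NRG1 and 10 that of ERRFI1. NRG1 had a KO response minus WT response of -1.29 on the log2 scale (limma adjusted p = 0.0192): the KO clones stood at -1.66 and -1.75 with minus without 4-OHT (clones 66 and 69) and the WT clones at -0.32 and -0.51 (clones 15 and 54). ERRFI1 had a KO response minus WT response of 0.721 (limma adjusted p = 0.048): the KO clones stood at 4.09 and 4.24 and the WT clones at 3.58 and 3.30.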

How the results depend on the processing

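The direction and call of the responses of AREG, EREG, ERBB2 and ERRFI1 held under every alternative run, in both genotypes. The size of the AREG response did not: with a pseudocount of 1 it was 5.53 in KO and 4.56 in WT on the log2 scale, against 6.47 and 6.005. The fit of ERBB3, which passed the filter through the libraries without 4-OHT alone, is not given as stable. Over the 40 member results (ERBB3 included) and 576 alternative values, 511 kept direction and side of the threshold, 36 lost a call, 18 gained one and 11 changed sign; 23 results kept both throughout. The counts of members called between the genotypes moved most. Without 4-OHT 2 were called, against 1 with a pseudocount of 1, 0 with no filter, 1 with voom, 0 on the 4 libraries alone and 0 to 2 with 1 library left out. With 4-OHT 3 were called, against 0 to 4 with 1 library left out. For the difference of responses 2 were called, against 1 with a pseudocount of 0.01, 0 with no filter, 1 with library size only, 1 with voom and 0 to 2 with 1 library left out. Over all genes, KO minus WT without 4-OHT gave 1087 calls, against 255 with no filter, 1777 with voom, 75 on the 4 libraries alone and 5 to 1879 with 1 library left out. With 4-OHT it gave 2382, against 1020 with no filter and 172 to 2985 with 1 library left out, and the difference of responses gave 1253, against 454 with no filter and 293 to 2154. No filter tests more genes, and leaving out a library leaves fewer samples. The sign changed for values near 0: ERBB2 KO minus WT with 4-OHT was 0.003 on the 4 libraries alone and -0.114 to 0.118 with 1 library left out. With 1 library left out, ERBB3 in that comparison ran from -0.372 to 0.034, ERRFI1 KO minus WT without 4-OHT from -0.024 to 0.13, the EGFR response in WT from -0.021 to 0.587, the EGF response in KO from -0.453 to 0.125 and the EGFR difference of responses from -0.437 to 0.182. With the clone as a replicate block (paired samples), NRG1 in WT (adjusted p = 0.0131) and HBEGF in KO (0.0359) passed. HRAS in WT (0.0633) did not. Among the tested members and the genes named from the lists, SPRY1 aside, no other call of a response changed. In the difference of responses no call of a member changed. SPRY1, the fibroblast markers and the differences of responses of HRAS, DUSP6 and EGR1 were not checked under the alternatives. The block could not be fitted to KO minus WT, since each clone has 1 genotype. A library left alone in its group is assumed to vary like the other groups. At these depths TGFA and BTC could not be compared.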
